A study of Homo sapiens with 58 samples.

Results

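The integrin and laminin genes described here are 29 genes, 19 encoding integrin subunits and 10 encoding laminin chains. Their regulatory elements (REs) were the regions of the hg38 count table whose midpoint lay inside the gene body or within 50 kb of a GENCODE v44 start site of the gene, and an RE near several of the genes was counted for the nearest start site. This gave 553 of 151457 REs, from 8 for ITGA2 to 54 for ITGA9. The midpoint lay in the body of the gene for 316 of them. For 163 the nearest start site of a coding gene belonged to another gene, so that the assignment to an integrin or laminin gene is one of position only.

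Integrins are cell surface receptors made of an alpha and a beta subunit, and they join the extracellular matrix and neighbouring cells to the actin cytoskeleton. Laminins are trimers of an alpha, a beta and a gamma chain that build the basement membrane, and several integrins bind them. Neural crest cells leave the neural tube through a basement membrane and migrate over a matrix rich in fibronectin, laminin and collagen, contacts that integrins make.

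Chromatin accessibility had been measured by ATAC-seq, in which Tn5 transposase cuts open DNA, in cranial neural crest cells (CNCCs) differentiated from the human embryonic stem cell line H9. In clones S9CC13 and S9CC47, both alleles of the transcription factor gene SOX9 carried an FKBP12-derived degradation tag, mNeonGreen and a V5 epitope, so that dTAGV-1 directs the protein to degradation; WT cells had no tag. The question was how accessibility follows SOX9 dosage, and in 58 samples the design held 3 sets. The dose series had SOX9-tagged cells after 48 h with 0, 0.5, 1.6, 5, 16 or 500 nM dTAGV-1, which by the labels left 100, 77.9, 51.7, 25.8, 8.14 and 0.95% of SOX9. Each dose had 7 replicates, a replicate being 1 clone in 1 differentiation (4 of S9CC13 and 3 of S9CC47). WT cells after 48 h with 0 or 500 nM had 2 replicates per dose. The time course had SOX9-tagged and WT cells with DMSO vehicle for 24 h or with 500 nM dTAGV-1 for 3 h or 24 h, with 2 replicates in each of these groups. Every tagged line was a single clone.

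Total counts in REs ran from 22.91 M to 81.04 M per sample, and the median member RE held 164 counts at 0 nM. Levels are given as CPM, the usual measure of counts relative to the library total, with totals scaled by TMM factors. As a check of the cell type, 8 of 9 CNCC markers had an RE within 1 kb of the start of the gene, with 13.3 to 121 CPM per kb at 0 nM against a median of 12.2 CPM per kb over all 34348 promoter REs. TFAP2A had no RE within that distance. Of 4 markers of pluripotent cells only DPPA4 had such an RE (7.85 CPM per kb), of 3 neuroepithelial markers only SOX1 (4.33 CPM per kb), and PECAM1, CDH5 and PTPRC of endothelium and blood had none. The epithelial markers EPCAM (22.3 CPM per kb) and KRT18 (5.08 CPM per kb) had 1 each, and CDH1 had none. At 500 nM the CNCC marker MSX1 was higher (log2 fold change 0.37, adjusted p = 2.61e-03) and KRT18 was lower (−0.39, adjusted p = 0.048), the other markers were not called, and their part in the results was not tested. In replicate S9CC13_R14 the concentration labels of the 0 and 0.5 nM samples are exchanged relative to the titles, and the titles were used. Time-course columns of differentiation R5 name clone S9CC47 where the titles name S9CC13, and the clone was not used in those tests.

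In what follows an RE is named by its gene and its number along the chromosome among the REs of that gene. Sequences of 4 REs are shown because the results turn on them: ITGA1-RE12, ITGA11-RE16 and ITGB3-RE6 were among the members with the strongest loss of accessibility on SOX9 depletion, and ITGAV-RE5 gained accessibility. Each is a stretch of 200 bases on the plus strand of hg38, and the first 3 lie in introns by the position of the RE's midpoint, the last upstream of ITGAV. Capitals mark SOX core letters (ACAATG or ACAAAG, either strand) in the first 3 and AP-1 letters (TGANTCA) in ITGAV-RE5.
ITGA1-RE12, chr5:52868529-52868728: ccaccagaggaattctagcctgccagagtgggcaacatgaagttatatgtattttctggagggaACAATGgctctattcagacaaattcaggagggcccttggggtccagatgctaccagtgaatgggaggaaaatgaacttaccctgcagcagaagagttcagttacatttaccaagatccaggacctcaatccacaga
ITGA11-RE16, chr15:68375231-68375430: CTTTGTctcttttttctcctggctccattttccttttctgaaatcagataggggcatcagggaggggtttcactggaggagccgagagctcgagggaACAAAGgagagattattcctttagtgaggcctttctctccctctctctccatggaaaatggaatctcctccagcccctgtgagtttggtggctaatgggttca
ITGB3-RE6, chr17:47295554-47295753: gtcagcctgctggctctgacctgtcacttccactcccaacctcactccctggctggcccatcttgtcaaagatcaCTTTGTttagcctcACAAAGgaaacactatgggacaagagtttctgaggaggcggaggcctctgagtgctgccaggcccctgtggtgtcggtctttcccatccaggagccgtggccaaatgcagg
ITGAV-RE5, chr2:186575372-186575571: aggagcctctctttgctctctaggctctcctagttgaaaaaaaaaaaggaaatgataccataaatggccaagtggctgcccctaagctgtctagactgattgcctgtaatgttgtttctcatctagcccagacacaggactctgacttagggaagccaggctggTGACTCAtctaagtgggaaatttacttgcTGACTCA
ITGB3-RE6 held a pair of SOX cores on opposite strands with 8 bases between them, CTTTGT before ACAAAG on the plus strand. The cores of ITGA11-RE16 had the same order and stood 91 bases apart. Neither is the facing order, ACAA before TTGT, that was counted over the REs further on. ITGA1-RE12, which had the largest loss of all members, held a single core.

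At 500 nM for 48 h, 99 member REs were lower and 56 were higher than at 0 nM (edgeR quasi-likelihood test, adjusted p under 0.05 over all REs). That is 17.9% lower and 10.1% higher, against a background of 13.9% lower and 10.2% higher among all 151457 REs. The member share was thus above the background for losses and at the background for gains, and no test of the members as a list was made. The median log2 fold change over all members was −0.005, and over all REs 0.018. Of the 155 called members, 125 moved in the same direction in 7 of 7 replicates, and for 39 the CPM of the 0 nM and 500 nM samples did not overlap. The same counts were not made over all called REs, so they do not set the members apart from other REs. Losses reached further than gains: 27 members were lower by a log2 fold change of −1 or beyond, and 6 were higher by 1 or more. This is 27.3% of the lower members, against 27.8% of all lower REs, and 10.7% of the higher members, against 5.97% of all higher REs. The fall at an RE can come from fewer cells in which it is open or from less opening per cell, which bulk samples cannot tell apart. Leaving out differentiation as a covariate gave 74 calls, 62 lower and 12 higher, against 10503 lower and 4601 higher of all REs.

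Losses and gains were spread over the genes. Of 29 genes, 17 had both lower and higher REs, 7 had lower REs only and 5 had higher REs only. ITGA11 (12 lower of 26 REs), ITGA6 (6 of 13), ITGB7 (5 of 19), ITGB3 (2 of 10), ITGB4 (2 of 14), ITGA4 (1 of 11) and LAMA5 (1 of 15) had lower REs only. ITGA2 (4 higher of 8 REs), ITGAV (3 of 11), ITGA8 (3 of 18), ITGB8 (2 of 9) and LAMB2 (1 of 14) had higher REs only. Of the 161 promoter REs, those within 1 kb of any annotated start site, 17 were lower and 11 higher (10.6% and 6.83%, against 8.29% and 6.33% of all promoter REs). Away from promoters, 54 of 249 REs in the gene bodies and 28 of 143 outside them were lower, and 31 and 14 were higher (15.6% lower and 11.3% higher over all REs away from promoters). Members whose nearest coding gene was the integrin or laminin gene itself were lower in 75 and higher in 46 of 390 cases, and members nearer to another coding gene in 24 and 10 of 163.

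**Figure D1:**
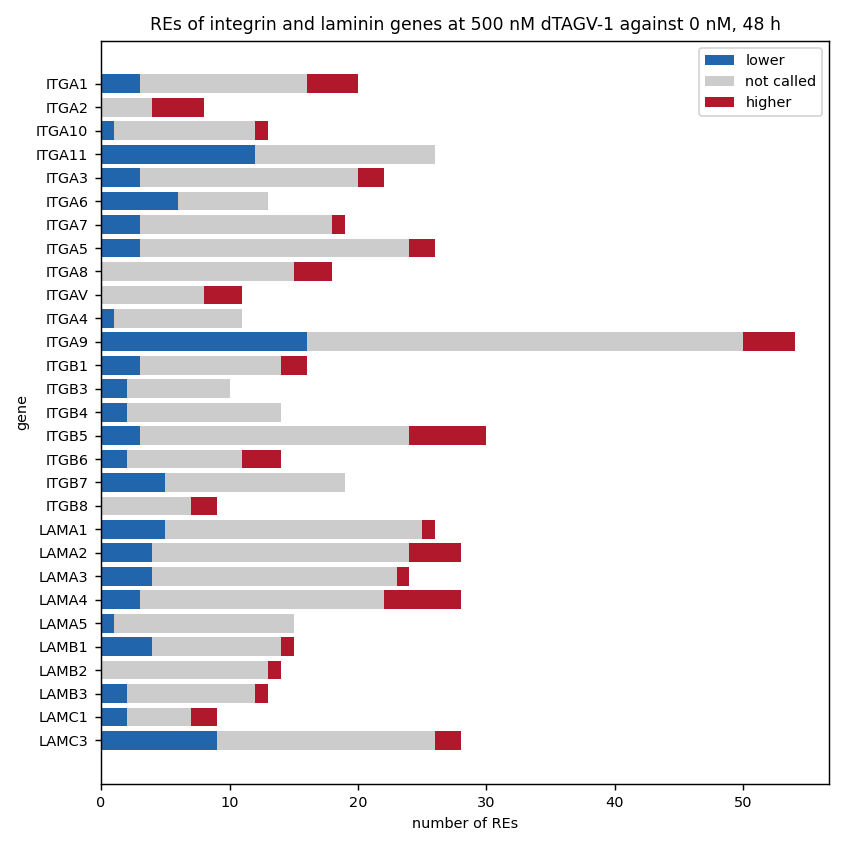
Number of REs (x axis) of each integrin and laminin gene (y axis) that were lower, higher or not called at 500 nM against 0 nM after 48 h, 7 replicates per dose. ITGA9 held 16 lower and 4 higher of 54 REs, ITGA11 12 lower and none higher of 26, and ITGA2 4 higher and none lower of 8.

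Among the collagen-binding alpha subunits ITGA1, ITGA2, ITGA10 and ITGA11, 16 of 67 REs were lower and 9 higher. That is 23.9% and 13.4%, against 13.9% and 10.2% of all REs. ITGA1 encodes the alpha1 subunit, a receptor for collagen IV, and its intronic ITGA1-RE12 (chr5:52868379-52868879) stood at 6.89 (lowest), 10.9 (median) and 12.2 CPM (highest) over the 7 samples at 0 nM. At 500 nM it stood at 0.063, 0.36 and 0.69 CPM. Every 500 nM sample thus lay far below every 0 nM sample, the log2 fold change being −4.82 ± 0.18 (SE, n = 7 per dose, adjusted p = 6.76e-16). At 0 nM the S9CC13 samples of differentiations R10, R13 and R14 were the 3 lowest, at 6.89 to 7.41 CPM, and the other 4 samples lay between 10.9 and 12.2 CPM. The neighbouring intronic ITGA1-RE13, with no SOX core, was lower by far less (log2 fold change −1.15 ± 0.10, adjusted p = 4.00e-09), with 11.5 to 20.7 CPM at 0 nM and 5.43 to 8.72 CPM at 500 nM. At the other end of the same gene, ITGA1-RE20 in the 3′ untranslated exon was higher, from 0.73, 0.98 and 1.33 CPM to 1.62, 2.30 and 3.29 CPM (log2 fold change 1.16 ± 0.15, adjusted p = 2.24e-06). Its groups did not overlap, although its level at 0 nM was 43.3 counts on average. The same gene body thus held the strongest loss and the strongest gain among the members.

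ITGA11 encodes the alpha11 subunit, a receptor for fibrillar collagen on mesenchymal cells, and all of its 12 called REs were lower. Its strongest was the intronic ITGA11-RE16 (chr15:68375159-68375659), at 12.1, 22.6 and 29.1 CPM (lowest, median, highest) without dTAGV-1 and 1.56, 2.89 and 4.29 CPM at 500 nM (log2 fold change −2.82 ± 0.11, adjusted p = 7.96e-16). ITGA11-RE15, in the same intronic stretch, was lower by nearly as much (−2.72 ± 0.14, adjusted p = 2.07e-13), and it had no SOX core. The upstream ITGA11-RE26 fell from 0.51, 1.07 and 1.52 CPM to 0.062, 0.16 and 0.43 CPM (−2.41 ± 0.33, adjusted p = 3.06e-06). In these 3 REs no 500 nM sample reached the lowest 0 nM sample. The remaining 9 lower REs of ITGA11 had log2 fold changes from −1.64 to −0.48. ITGA2, which encodes the alpha2 subunit of another collagen receptor, went the other way: ITGA2-RE3, ITGA2-RE5, ITGA2-RE6 and ITGA2-RE7, all intronic, were higher by 0.54 to 1.07. For ITGA2-RE5, the highest of them, the samples ran from 0.43 to 0.97 CPM at 0 nM and from 0.68 to 2.39 CPM at 500 nM, so that the groups overlapped while all 7 replicates moved up (1.07 ± 0.19, adjusted p = 1.5e-04).

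The laminin-binding alpha subunits ITGA3, ITGA6 and ITGA7 had 12 lower and 3 higher of 54 REs (22.2% and 5.56%, against 13.9% and 10.2% of all REs). ITGA6 encodes the alpha6 subunit, which pairs with beta1 or beta4 as a laminin receptor. Its intronic ITGA6-RE12 (chr2:172490058-172490909), 309 bp from the start of an internally starting transcript, had 6.62, 11.5 and 18.8 CPM at 0 nM and 0.73, 0.94 and 1.49 CPM at 500 nM. The groups lay well apart, the log2 fold change being −3.66 ± 0.15 (adjusted p = 2.60e-15). ITGA6 was also 1 of the genes whose start-site RE was lower: ITGA6-RE5 fell by 1.04 ± 0.07 on the log2 scale (adjusted p = 5.28e-11), from 17.1, 21.6 and 26.4 CPM to 7.14, 11.0 and 12.9 CPM. The other 4 called REs of ITGA6 had log2 fold changes of −1.20 to −0.68. ITGA3, a laminin receptor subunit of epithelial cells, had 3 lower and 2 higher of 22 REs, none beyond a log2 fold change of −0.91. ITGA7, best known as the laminin receptor subunit of muscle, had 3 lower and 1 higher of 19, and all 4 were nearest to the start of another coding gene.

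The subunits that recognise the RGD sequence of fibronectin and vitronectin, ITGA5, ITGA8 and ITGAV, had 8 higher (14.5%) and 3 lower (5.45%) of 55 REs, against 10.2% and 13.9% of all REs, and were not tested as a group. ITGAV encodes the alphaV subunit, which pairs with several beta subunits. ITGAV-RE5 (chr2:186575220-186575720), 14540 bp upstream of its start, had 0.99, 2.27 and 3.49 CPM at 0 nM and 2.23, 4.46 and 7.56 CPM at 500 nM. The groups overlapped, and all 7 replicates were higher at 500 nM (log2 fold change 1.05 ± 0.12, adjusted p = 3.27e-07). ITGA8 had 3 higher REs, among them the start-site RE ITGA8-RE14 (0.42 ± 0.08, adjusted p = 1.21e-04). The 3 lower REs were all counted for ITGA5, the alpha subunit of the classical fibronectin receptor, but each lay nearer to another coding gene. The strongest was ITGA5-RE3, 43144 bp from an ITGA5 start site and nearest to GPR84 among coding genes. It fell from 20.3, 22.8 and 28.3 CPM to 5.23, 5.90 and 7.05 CPM (−1.96 ± 0.09, adjusted p = 6.25e-15).

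ITGA9, whose alpha9 subunit binds tenascin-C and other matrix ligands, held the most REs of any member gene and also the most lower REs (16 of 54). Nearly all of these were intronic, and 4 REs were higher. The shares were 29.6% lower and 7.41% higher, against 13.9% and 10.2% of all REs. The lower share was larger at ITGA11 and ITGA6 (46.2% each) and at LAMC3 (32.1%). The intronic ITGA9-RE11 had 1.69, 3.13 and 4.19 CPM at 0 nM and 0.18, 0.32 and 0.40 CPM at 500 nM, without overlap (log2 fold change −3.28 ± 0.18, adjusted p = 4.39e-13). ITGA9-RE28 fell from 13.7, 22.7 and 33.2 CPM to 3.61, 4.57 and 6.33 CPM (−2.16 ± 0.11, adjusted p = 8.95e-14), and ITGA9-RE27, its neighbour, from 5.26, 8.98 and 12.8 CPM to 1.52, 2.07 and 3.81 CPM (−1.90 ± 0.16, adjusted p = 1.35e-09). Both pairs of groups were fully separate. The 4 higher REs, all intronic, had log2 fold changes of 0.42 to 0.73. ITGA4, the other alpha subunit of this pair, had 1 lower RE of 11, ITGA4-RE10 at −1.27, inside CERKL.

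The integrin beta subunits had 17 lower and 13 higher of 112 REs (15.2% and 11.6%, against 13.9% and 10.2% of all REs). ITGB3, whose beta3 subunit pairs with alphaV, held ITGB3-RE6 (chr17:47295404-47295904) in an intron, with 1.29, 2.07 and 3.01 CPM at 0 nM and 0.14, 0.35 and 0.51 CPM at 500 nM (log2 fold change −2.54 ± 0.20, adjusted p = 5.61e-10). ITGB6-RE8, 14201 bp from the start of ITGB6, whose product is a partner of alphaV in epithelium, fell from 1.08, 1.94 and 2.11 CPM to 0.045, 0.29 and 0.91 CPM (−2.58 ± 0.30, adjusted p = 4.05e-07). In both, every 500 nM sample lay below every 0 nM sample. ITGB4-RE2, inside SAP30BP and nearest to its start, was lower by −1.42 ± 0.11 (adjusted p = 2.87e-10); ITGB4 encodes the laminin receptor subunit of hemidesmosomes. ITGB1, the partner of most alpha subunits, had 3 lower REs, of which ITGB1-RE16 reached −1.66, and 2 higher ones. ITGB5 had the most gains of the beta genes, 6 of 30 REs, by 0.22 to 0.81. The 5 lower REs of ITGB7, a beta subunit of leukocytes, lay inside RARG or between genes and nearer to other coding genes.

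Laminin alpha chains had 17 lower and 12 higher of 121 REs (14% and 9.92%, against 13.9% and 10.2% of all REs). Laminin beta chains had 6 and 3 of 42 (14.3% and 7.14%), and laminin gamma chains 11 and 4 of 37 (29.7% and 10.8%). Only the lower share of the gamma chains thus stood well above that of all REs, and these groups were not tested. LAMA4, the alpha chain of vascular and mesenchymal laminins, combined a start-site loss with intronic gains. Its start-site RE, LAMA4-RE22 (chr6:112254926-112255426), with 4 SOX cores, had 2.91, 6.69 and 10.4 CPM at 0 nM and 1.68, 1.83 and 2.46 CPM at 500 nM (log2 fold change −1.66 ± 0.17, adjusted p = 3.72e-08). The 0 nM samples differed widely among themselves, with S9CC13 of R13 and R14 lowest, and yet no 500 nM sample reached them. LAMA4-RE26, upstream of the gene, was higher, from 2.21, 3.47 and 5.80 CPM to 4.57, 8.54 and 13.3 CPM (1.14 ± 0.11, adjusted p = 1.98e-08). The intronic LAMA4-RE14 (1.06 ± 0.17, adjusted p = 3.86e-05) and LAMA4-RE16 (0.97 ± 0.26, adjusted p = 6.84e-03) were higher in 7 of 7 replicates each, at 39.0 and 25.0 counts on average at 0 nM. LAMA4-RE16 was not called without the covariate (adjusted p = 0.127).

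The strongest loss among laminin chains was LAMC3-RE27 (chr9:131111733-131112598), at 20.8, 28.2 and 35.7 CPM without dTAGV-1 and 2.62, 3.23 and 4.78 CPM at 500 nM (log2 fold change −2.97 ± 0.11, adjusted p = 3.33e-16). It lay inside AIF1L, which follows LAMC3 on the chromosome, and the start of AIF1L was its nearest start site. LAMC3, which encodes the gamma3 chain, had 9 lower REs of 28, and the other 8 had log2 fold changes of −0.65 to −0.34. LAMA2, the alpha chain of muscle basement membrane, had 4 lower and 4 higher of 28 REs, and LAMA1, a chain of the early embryonic basement membrane, 5 lower and 1 higher of 26.

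The start-site RE of a gene was the RE nearest to the 5′ end of the gene record, within 1 kb. Such an RE existed for 27 of the 29 genes, ITGB6 and ITGB7 having none. At 500 nM, 5 of the 27 were called (over all promoter REs, 8.29% were lower and 6.33% higher), LAMA4-RE22 and ITGA6-RE5 as lower and LAMB3-RE8, ITGB1-RE12 and ITGA8-RE14 as higher. ITGB1-RE12 went from 10.8, 15.2 and 20.7 CPM to 16.1, 23.2 and 31.8 CPM, higher in 7 of 7 replicates (log2 fold change 0.55 ± 0.09, adjusted p = 4.37e-05). LAMB3-RE8, at the gene of a beta chain of epithelial laminin, went from 0.70, 0.79 and 1.88 CPM to 0.94, 1.18 and 3.01 CPM, with overlapping groups (0.69 ± 0.17, adjusted p = 4.16e-03). Neither was called without the covariate (adjusted p = 0.0535 for ITGB1-RE12 and 0.147 for LAMB3-RE8). For the other 22 the log2 fold change lay between −0.22 (LAMA3) and 0.19 (LAMA2). Per kb of RE, the level at 0 nM ran from 1.86 CPM per kb at LAMB3 through 13.2 at LAMA4, 13.97 at ITGA6 and 19.4 at ITGB1 to 76.1 at ITGA1 and 90.4 CPM per kb at ITGAV. The start-site RE of ITGA1 was nearest to PELO, and that of ITGA7 to BLOC1S1, so that their levels are shared with those genes.

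**Figure D2:**
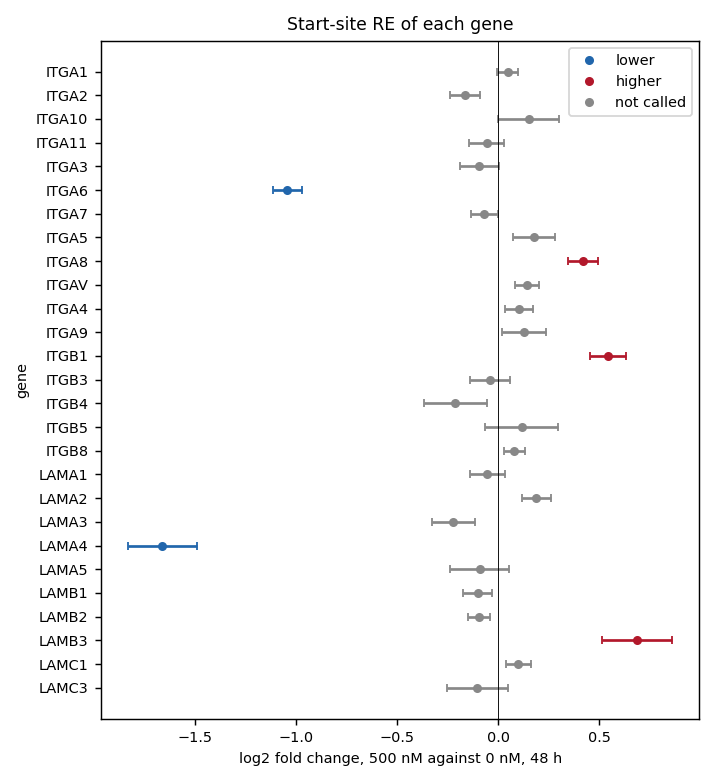
Log2 fold change at 500 nM against 0 nM after 48 h (x axis) of the start-site RE of each of 27 genes (y axis), points with SE bars, 7 replicates per dose. The start-site REs of LAMA4 (−1.66) and ITGA6 (−1.04) were lower, those of LAMB3, ITGB1 and ITGA8 were higher, and the others were not called.

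The dose series asked at which SOX9 level these REs change. All doses were compared with the same 0 nM samples, so the counts are given side by side. At 16 nM, 72 members were lower and 30 higher (13815 and 10789 of all REs, a background of 9.12% and 7.12%). With total-count scaling the split was 63 and 42 (11834 and 14325 of all REs), and with the replicate as a block 112 and 57 (21205 and 18292). At 5 nM, 33 were lower and 1 was higher (background 4.24% and 1.08%), and with the replicate block 47 and 10 (8697 and 4224 of all REs). The single gain was LAMA4-RE14 (0.64 ± 0.16, adjusted p = 0.0329). In the 5 nM sample of S9CC47_R6 some REs stood far above its other doses. LAMA1-RE21 had 27.4 CPM there, against 11.5 CPM at 0 nM and 11.1 CPM at 500 nM. The lowest correlation with the 0 nM sample of the same replicate was 0.21 at 5 nM, and 0.48 to 0.68 at the other doses. Counts at 5 nM without this replicate were not made. At 1.6 nM, which leaves 51.7% of SOX9 by the labels, 3 were lower and none was higher (background 0.0383% and 0%). With the replicate block 10 were lower, against 1425 of all REs. At 0.5 nM none was called by edgeR (background 0%) or by DESeq2. By edgeR 18 of 553 members had an unadjusted p under 0.05, against 5219 of 151457 REs, and by DESeq2 12, against 3580. The median log2 fold change of the 99 members that were lower at 500 nM went from −0.01 (0.5 nM) through −0.10 (1.6 nM), −0.34 (5 nM) and −0.50 (16 nM) to −0.75 (500 nM). For the 56 higher members it was −0.01, 0.06, 0.19, 0.35 and 0.55. Without differentiation as a block, 40 members were lower and 2 higher at 16 nM (6251 and 1466 of all REs). By the same setting 13 were lower and none higher at 5 nM (2123 and 22 of all REs), and no RE of the whole table was called at 1.6 nM.

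The 3 REs called at 1.6 nM, none of which was called without the block, were ITGB3-RE6, ITGA9-RE27 and LAMC3-RE27. ITGB3-RE6 had a median of 2.07 CPM without dTAGV-1, and of 1.37, 0.95, 0.60, 0.39 and 0.35 CPM with 0.5, 1.6, 5, 16 and 500 nM. Its log2 fold change was −0.93 ± 0.16 at 1.6 nM (adjusted p = 0.0441), and its samples overlapped with those at 0 nM (0.57 to 1.69 against 1.29 to 3.01 CPM). ITGA9-RE27 was lower by −0.45 ± 0.08 (adjusted p = 0.0482) and LAMC3-RE27 by −0.46 ± 0.07 (adjusted p = 0.0318). ITGA1-RE12, with the larger loss at 500 nM, had a log2 fold change of −0.20 ± 0.08 at 1.6 nM (adjusted p = 0.81), −1.11 ± 0.11 at 5 nM and −2.93 ± 0.23 at 16 nM.

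**Figure D3:**
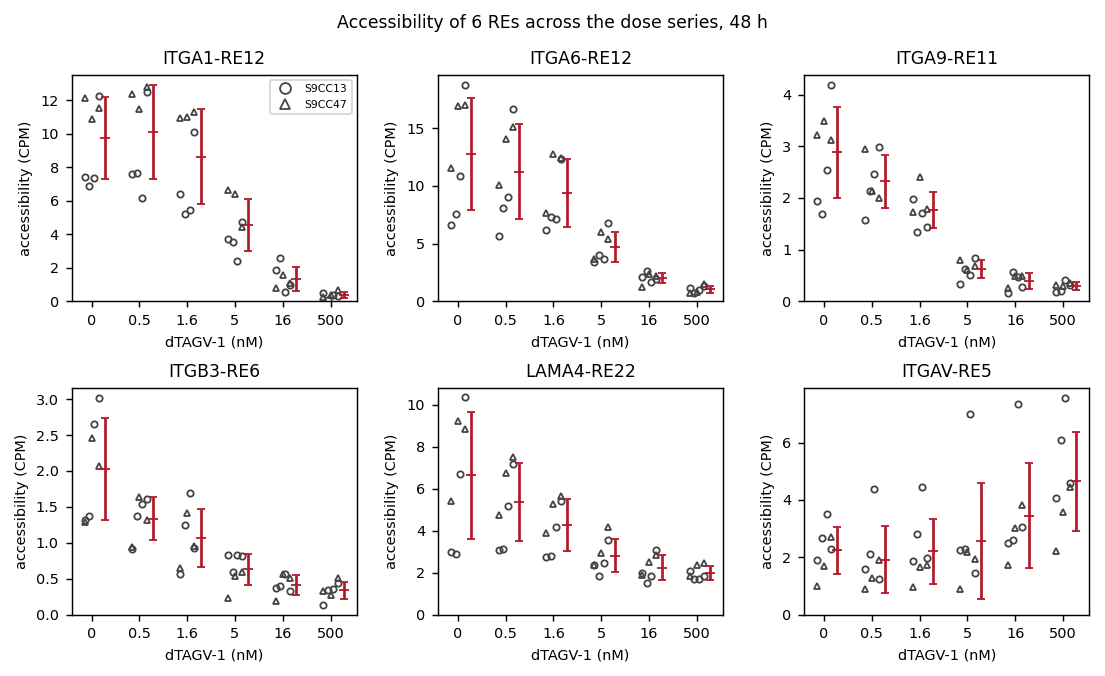
Accessibility in CPM (y axes, linear, from 0) of 6 REs at each dTAGV-1 concentration after 48 h (x axes), open symbols for single samples by clone and red marks for the mean and SD of 7 samples. The median of LAMA4-RE22 was 6.69 CPM at 0 nM, 4.17 CPM at 1.6 nM (not called, adjusted p = 0.0622 by edgeR) and 1.83 CPM at 500 nM, and that of ITGA1-RE12 was 10.9, 10.1 and 0.36 CPM.

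The position of the change was summarised as an ED50, the SOX9 level in percent at which a Hill curve, fitted to the CPM of the dose series, had passed the middle of the change. Because the ED50 comes from the samples that chose the REs, it is a description. The 27 members lower by a log2 fold change of −1 or beyond had a median ED50 of 27.1%, against 32.1% for the 5873 such REs of the whole table. Among them the highest were ITGB3-RE6 (61.3%, and 56.9 to 65.3% when each replicate was left out), LAMA4-RE22 (54.7%, 52.4 to 56.2%) and ITGA11-RE26 (50.5%, 46.4 to 56.3%). The lowest were the start-site RE ITGA6-RE5 (14.6%, 12.6 to 17.5%), ITGB4-RE2 (18.0%, 16.1 to 21.8%) and ITGA1-RE13 (20.3%, 17.4 to 22.7%). Because these REs were chosen from the ends of the ED50 order, the gap between the high and the low ranges follows from that choice. ITGA6-RE12, in the same gene as ITGA6-RE5, had an ED50 of 36.4% (35.7 to 38.4%), so that 2 REs of 1 gene lost accessibility at different SOX9 levels. The 56 higher members had a median ED50 of 12.8%, against 18.2% over all higher REs.

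Early effects of SOX9 degradation were read from the time course, whose samples are apart from the dose series. After 3 h with 500 nM, 59 members were lower and 7 higher than with vehicle (10.7% and 1.27% of members, background 7.43% and 0.912%), and after 24 h 75 were lower and 30 higher (background 9.93% and 4.7%). Without differentiation as a block no member was called at 3 h and 9 at 24 h, against 0 and 969 of all 151457 REs. Leaving out replicate R4 or R5, with the spread then taken from the WT samples, left fewer calls at both times, among the members and over all REs. Of the 99 members that were lower at 48 h, 46 were also lower at 3 h (46.5%, against 43.3% of all REs lower at 48 h), and 62 at 24 h (62.6%, against 60.1%). Of the 56 that were higher at 48 h, none was higher at 3 h (against 1.61% of all higher REs) and 19 were at 24 h (33.9%, against 26.2%). At 3 h the 56 had a median log2 fold change of 0.04, and all higher REs one of 0.08.

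The largest changes at 3 h were the 4 losses at ITGA1-RE12, ITGA9-RE11, ITGA6-RE12 and ITGB3-RE6. The 2 SOX9-tagged replicates of ITGA1-RE12 stood at 10.3 and 15.2 CPM with vehicle, 0.82 and 1.11 CPM at 3 h and 0.53 and 0.64 CPM at 24 h. Its loss at 3 h was −3.77 ± 0.18 on the log2 scale (adjusted p = 1.03e-10). ITGA9-RE11 stood at 3.54 and 6.40 CPM with vehicle and at 0.51 and 0.52 CPM at 3 h (−3.27 ± 0.26, adjusted p = 5.24e-08). ITGA6-RE12 went from 17.0 and 21.2 CPM to 2.44 and 3.14 CPM (−2.82 ± 0.15 at 3 h by the same test, adjusted p = 7.98e-10), and ITGB3-RE6 from 4.06 and 5.53 CPM to 0.69 and 0.74 CPM (−2.81 ± 0.22, adjusted p = 4.39e-08). In each the treated replicates lay below both vehicle replicates.

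The start-site REs of LAMA4 and ITGA6 differed in time. LAMA4-RE22 stood at 15.6 and 15.8 CPM with vehicle and at 2.27 and 3.57 CPM at 3 h, a log2 fold change of −2.50 ± 0.16 (adjusted p = 3.53e-09), and −2.59 ± 0.16 at 24 h. Its level with vehicle lay above all 7 samples of the dose series at 0 nM (2.91 to 10.4 CPM), and its loss there was −1.66. ITGA6-RE5 had a log2 fold change of −0.26 at 3 h (adjusted p = 0.17), −0.54 at 24 h and −1.04 at 48 h.

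The 7 members higher at 3 h had log2 fold changes of 0.32 to 0.77. None of them was higher at 48 h, against 249 of the 1381 REs of the whole table that were higher at 3 h. LAMC3-RE10 had 1.26 and 3.37 CPM with vehicle and 2.04 and 6.29 CPM at 3 h (0.77 ± 0.23, adjusted p = 0.0447). ITGB5-RE4 was higher at 3 h, from 6.77 and 17.1 CPM to 10.0 and 28.2 CPM (0.58 ± 0.11, adjusted p = 9.33e-04), and it was lower at 48 h (−0.41 ± 0.10, adjusted p = 2.55e-03, not called without the covariate). LAMA5-RE6 (0.53 ± 0.13, adjusted p = 0.0117) and ITGA5-RE13 (0.56 ± 0.16, adjusted p = 0.0298) were the other 2 of the 4 highest. Of the 59 members lower at 3 h, 12 were not called at 48 h, and 1, LAMA2-RE22, was higher then.

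**Figure D4:**
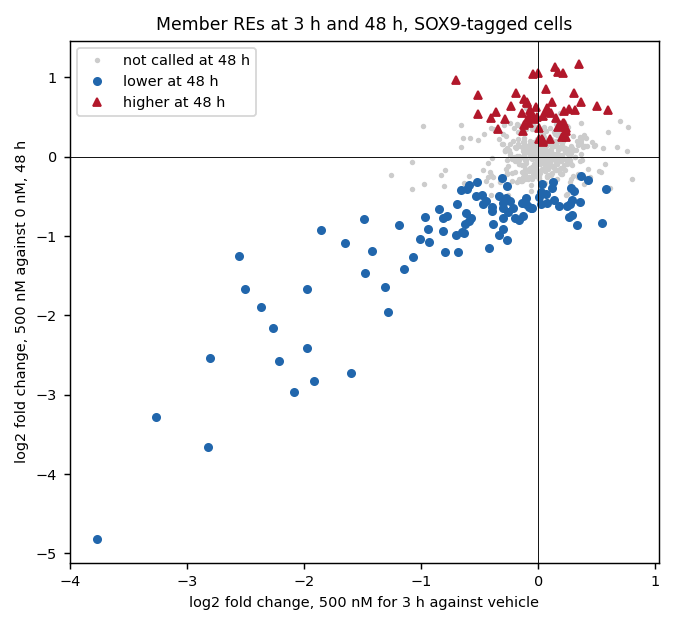
Log2 fold change of the 553 member REs after 3 h of 500 nM dTAGV-1 against vehicle (x axis, 2 replicates per group) and after 48 h of 500 nM against 0 nM (y axis, 7 replicates per dose) in SOX9-tagged cells, coloured by the call at 48 h. REs with the largest losses at 48 h, such as ITGA1-RE12 at −4.82, lay far to the left at 3 h (−3.77), while the higher REs were centred near 0 at 3 h.

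WT cells show what dTAGV-1 does without the tag. No member was called in WT cells at 3 h or 24 h by edgeR or by DESeq2, and no RE of the table was called by edgeR (background 0% at both times). By edgeR 4 of 553 members had an unadjusted p under 0.05 at 3 h and 11 at 24 h, against 3656 and 4642 of 151457 REs. By DESeq2 the member counts were 0 and 1, against 533 and 962 over all REs. The difference between the SOX9-tagged and the WT effect passed the test for 44 members at 3 h, 42 with the lower value in tagged cells and 2 with the higher (background 5.13% and 0.072%), and for 57 at 24 h, 51 and 6 (background 6.28% and 0.45%). Without the block 6 and 11 members were called at 3 h and 24 h, against 684 and 1587 of all REs. Leaving out S9CC13_R4 gave fewer calls at both times, and leaving out WT_R5 fewer at 3 h, among the members and over all REs. For ITGA1-RE12 the WT replicates stood at 18.0 and 21.5 CPM with vehicle and at 17.5 and 22.0 CPM at 3 h, and the genotype difference was −3.79 ± 0.20 (adjusted p = 1.09e-10). For LAMA4-RE22 the WT replicates stood at 15.1 and 17.8 CPM with vehicle and at 12.9 and 18.5 CPM at 3 h, and the difference was −2.45 ± 0.26 (adjusted p = 5.94e-07).

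In WT cells after 48 h with 500 nM, 3 members were called, 2 lower and 1 higher (background 0.145% and 0.158%). ITGA9-RE11 was higher, from 3.59 and 3.68 CPM to 5.34 and 5.63 CPM (0.59 ± 0.13, adjusted p = 0.0112), in the direction opposite to SOX9-tagged cells. ITGB5-RE5 was lower, from 21.0 and 31.1 CPM to 13.1 and 24.3 CPM (−0.52 ± 0.08, adjusted p = 2.3e-06), and ITGB5-RE16 from 58.6 and 60.4 CPM to 47.2 and 52.1 CPM (−0.27 ± 0.06, adjusted p = 6.36e-03). Both of these were higher in SOX9-tagged cells, by 0.24 ± 0.08 and 0.22 ± 0.06, and neither was called there without the covariate. DESeq2 called none of the members in WT cells at 48 h (8 of 553 at an unadjusted p under 0.05, against 51 by edgeR), and without the block there was none. Neither setting called any RE of the whole table. Over all 151457 REs, 1214 had an unadjusted p under 0.05 by DESeq2 and 12537 by edgeR. Leaving out a replicate leaves 1 sample per dose, whose spread was taken from the SOX9-tagged samples, and the absence of calls there does not bear on the 3.

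Without dTAGV-1, SOX9-tagged and WT cells of the same differentiations differed at 4 members, 3 lower and 1 higher in tagged cells (background 0.429% and 0.521%). Of these, ITGA4-RE3 was named after its value was seen. The test held 3 pairs, the vehicle samples at 24 h of R4 and R5 and the 0 nM samples at 48 h of R8. Time and, by the titles, clone thus differed between the pairs. ITGA1-RE12 (−0.47 ± 0.11, adjusted p = 0.043), ITGA1-RE13 (−0.37 ± 0.09, adjusted p = 0.0438) and ITGA4-RE3 (−0.40 ± 0.10, adjusted p = 0.0486) were lower, and ITGB4-RE2 (0.68 ± 0.11, adjusted p = 2.89e-03) was higher. For ITGA1-RE12 the levels with and without the tag were 12.7 ± 3.48 and 19.8 ± 2.46 CPM (SD, n = 2) with vehicle in the time course, but 12.1 and 13.7 CPM at 0 nM in differentiation R8. DESeq2 called none of the lower members and 1 higher member (375 lower and 287 higher of all REs), and without the block no RE of the whole table was called. With total-count scaling 8 members were called, 3 lower and 5 higher (643 and 1229 of all 151457 REs), and without differentiation R4 14 (3891 of all REs).

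Members of 501 bp, 442 in all, were searched for short motifs on both strands, and the same search over the 123778 REs of that width gave the share to compare with. A SOX core stood in 47.3% of the members and 46.9% of all REs. Among the 34 members lower at 48 h and at 3 h it stood in 23 (67.6%, against 75.9% of all such REs). Among the 45 lower at 48 h only it stood in 23 (51.1%, against 49.4%), and among the 48 higher in 20 (41.7%, against 45.3%). ACAA and TTGT facing each other across 5 to 7 bases stood in 1 of the 34 (2.94%, against 8.18% of all such REs) and in 2.71% of all 442 members. AP-1 letters stood in 16 of the 48 higher members (33.3%, against 26.6% of all higher REs), and in 19.2% of all members and 15.5% of all REs. TFAP2 letters (GCCNNNGGC) stood in 22.6% of the members and 23.1% of all REs. The E-box letters CATCTG stood in 29 of the 45 members lower at 48 h only (64.4%, against 54.6%), and in 43.4% of all members and 42.1% of all REs. These are matches of letters and say nothing of binding, and a core can overlap the facing pair.

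**Figure D5:**
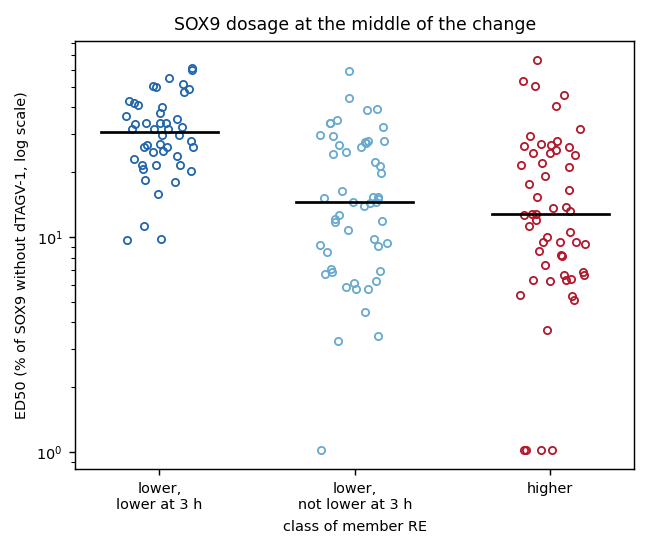
ED50 in percent of the SOX9 level without dTAGV-1 (y axis, log scale) of the member REs called at 500 nM, by class (x axis), circles for REs and lines for medians. REs lower at 48 h and 3 h had a median of 30.7%, REs lower at 48 h only 14.6% and higher REs 12.8%.

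The same 2 classes of lower members differed in ED50, with a median of 30.7% (quartiles 23.2 and 39.5%) for the 46 that were lower at 3 h and 14.6% (8.48 and 27.3%) for the 53 that were not. An ED50 under 30% was found for 50.0% and 84.9% of these members, and over all REs of the same classes for 46.9% and 82.5%.

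Other genes of the pathway were counted in the same fit at 500 nM, where 13.9% of all REs were lower and 10.2% higher. Adaptors that join integrins to actin and to signalling, among them talin, kindlin, vinculin and focal adhesion kinase genes, had 99 lower and 74 higher of 577 REs (17.2% and 12.8%). ACTN4, an alpha-actinin, held the strongest loss (−5.00 ± 0.14, adjusted p = 2.36e-18), from 26.9 ± 9.07 to 0.86 ± 0.25 CPM (SD, n = 7). The strongest gains were near ACTN1 (1.11 ± 0.19) and TNS3 (0.99 ± 0.13). Ligands and other basement membrane genes had 80 lower and 49 higher of 432 REs (18.5% and 11.3%). FRAS1, which encodes a basement membrane protein, held the strongest loss (−3.04 ± 0.32) and the strongest gains (1.75 ± 0.15 and 1.01 ± 0.11). An RE of HSPG2 (perlecan), 712 bp from a start site, had the next strongest loss (−2.63 ± 0.31). Other laminin receptor genes had 36 lower and 14 higher of 158 REs (22.8% and 8.86%). There SGCD had the strongest loss (−4.40 ± 0.24) and gains (1.55 ± 0.23 and 0.87 ± 0.18).

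At the 50 kb limit, the 3 REs just inside had higher levels at 0 nM than the 3 just outside. Just inside lay ITGB6-RE1 at 49434 bp from a start site (7.44 CPM at 0 nM, log2 fold change −0.17 at 500 nM), ITGB8-RE1 at 49590 bp (3.88 CPM, 0.48) and ITGA7-RE19 at 49696 bp (4.56 CPM, −0.26). Just outside lay REs near ITGA4 at 50015 bp (1.12 CPM, 0.32), ITGB8 at 50131 bp (1.09 CPM, 0.54) and ITGA11 at 50396 bp (1.42 CPM, 0.26).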

How the data were processed

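Per the labels, ATAC-seq libraries were made from 58 samples, and the authors deposited 1 table of raw counts per RE. The submitters' processing notes name Bowtie2 2.4.1, SAMtools 1.10, deepTools 3.5.0, MACS2 2.2.7.1 and bedtools, and the hg38 build. The deposited counts were not normalised; TMM-scaled CPM, fold changes and ED50 were computed here.

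All 151457 REs were fitted with the quasi-likelihood test of edgeR 4.0.16 in R 4.3.3, with differentiation as a covariate, and p-values were adjusted by Benjamini-Hochberg over all REs (threshold 0.05). DESeq2 1.42.0, other scalings, a filter on low counts, the replicate as a block, no block, other windows and leaving out each replicate were tried as alternatives. The procedure was tested on simulated counts. Members and gene lists were chosen with earlier results of these data known. Replicates are differentiations and clones. With differentiation as a covariate, p-values measure the spread left between replicates after level differences between differentiations were taken out.

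Named REs were the 12 lowest and 8 highest log2 fold changes at 500 nM (same direction in 7 replicates, at most 3 per gene in each direction), start-site REs, all called at 1.6 nM or in WT cells at 48 h, the 4 lowest and 4 highest at 3 h, the 3 highest and 3 lowest ED50 and 3 REs on each side of the 50 kb limit; of each other list, 2 REs in each direction. Some items that this rule names are not reported here. Other REs in the text were chosen after their values were seen. Samples with the same replicate number deviated together (lowest correlation 0.21 in the dose series, and 0.79 to 0.87 in the time course), with pairing by clone and differentiation in the labels. The least different of 1653 sample pairs had a reduced chi-square of 1.88, so no library was counted as a repeat.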

Additional observations from a re-analysis of the deposited data

Results flagged for a closer look

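Of 110 groups of 7 samples examined, 2 had a sample far from the rest, and chance gives about 1 in 20. At 0 nM, ITGA5-RE3 stood at 28.3 CPM in S9CC13_R6, and LAMB3-RE8 at 1.88 CPM in S9CC13_R10.

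The effect of 500 nM dTAGV-1 differed between SOX9-tagged and WT cells, by the test of the difference itself, at 44 members after 3 h and 57 after 24 h. The differences at 3 h (log2, tagged minus WT) were largest at ITGA1-RE12 (−3.79), ITGA9-RE11 (−3.41), ITGB3-RE6 (−2.86) and ITGA6-RE12 (−2.82). LAMA4-RE22 (−2.45), ITGB6-RE8 (−2.34), ITGA9-RE27 (−2.32), ITGA9-RE28 (−2.27), ITGA11-RE26 (−2.05) and ITGA11-RE16 (−2.04) followed. LAMC3-RE27 (−1.85), ITGA11-RE15 (−1.69), ITGA5-RE3 (−1.39) and ITGB4-RE2 (−1.23) were smaller, and LAMC3-RE10 (1.12) had the opposite sign.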

How the results depend on the processing

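Members called, by setting, were as follows. Without differentiation as a block, the counts were 74 (500 nM), 42 (16 nM), 13 (5 nM) and 0 (1.6 nM); 0 and 9 in tagged cells at 3 h and 24 h; 6 and 11 for the genotype difference at 3 h and 24 h; and 0 both in WT cells at 48 h and between tagged and WT cells. Over all 151457 REs the setting without a block called 15104, 7717, 2145 and 0 at these doses. It called 0 and 969 in tagged cells, 684 and 1587 for the genotype difference, and 0 both in WT cells at 48 h and between tagged and WT cells. With the replicate block the member counts were 169 (16 nM), 57 (5 nM) and 10 (1.6 nM), against 39497, 12921 and 1558 of all REs. That block moved no other member count by over 1.5 times. DESeq2 called 8 at 1.6 nM, 0 in WT cells at 48 h and 1 between genotypes without dTAGV-1, against 358, 0 and 662 of all REs. Of its 149 calls at 500 nM, 148 were among the 155. Total-count scaling gave 1 at 1.6 nM and 8 between genotypes (33 and 1872 of all REs), and exchanging the R14 samples gave 6 at 1.6 nM (173 of all REs). Leaving out 1 replicate gave 139 to 168 at 500 nM, 30 to 39 and 43 to 64 in tagged cells at 3 h and 24 h, 22 to 43 and 31 to 47 for the genotype difference, 0 in WT cells at 48 h, and 3 to 14 between genotypes. In the time course and in WT cells at 48 h the lone sample was assumed to vary like those of the other genotype. The cause was not tested. Windows of 20 kb and 100 kb gave 122 and 203 at 500 nM. Of 770 values of named REs, 740 kept direction and call and 5 turned sign, none of them called: with 1 replicate left out the log2 fold change ran from −0.078 to 0.062 at ITGB3-RE3, −0.089 to 0.04 at LAMA1-RE21, −0.195 to 0.037 at LAMA5-RE8 and −0.194 to 0.029 at LAMC3-RE7, the highest value of each being without S9CC13_R13, and LAMA1-RE21 stood at 0.003 with the R14 samples exchanged. With 2 replicates per group, the time-course counts are less secure than those of the dose series.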
